A study of Sus scrofa with 8 samples.

Results

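Hepatic RNA of 8 genes was followed in crossbred pigs before and after a steatotic diet: TREH, LPO, ATP2B3, PAQR7, IGSF23, AMBN, LOC110257900 and LOC100624191. The 8 genes were chosen from 18103 rows of the expression table because they were silent or low in every pool of the initial state and clearly higher in every steatosis pool, so their difference between the groups is a description and carries no test. All 8 had a level of at least 0.3 FPKM (fragments per kilobase of transcript, scaled to the mapped fragments of the library) in at least 4 of the 8 pools and were among the 13175 genes that passed this filter. For 5 of them (TREH, IGSF23, LPO, ATP2B3 and LOC110257900) all initial-state pools were below 0.3 FPKM, so they passed only through the steatosis pools.

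The animals were male Landrace x Large White pigs. The Control group was the initial state, at 4 months of age and labelled healthy, and the Steatosis group was sampled at 6 months of age, after 2 months on a diet rich in saturated fat, cholesterol, cholate and fructose and poor in methionine and choline. Each group held 4 libraries, made from the pooled RNA of 2 animals each. The initial-state livers were biopsied by laparotomy and the final ones were sampled after euthanasia, and no pigs of the same age on the control diet were among these libraries, so diet, age and the way of sampling cannot be told apart.

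Several of these genes are best known outside the liver. Trehalase splits trehalose, the sugar of insects and fungi, on the brush border of gut and kidney epithelium. Lactoperoxidase is a secreted heme enzyme of milk, saliva and airway mucus, ameloblastin is a protein of the enamel matrix, and ATP2B3 is a plasma membrane calcium pump of nervous tissue. PAQR7 is a membrane receptor for progestins, and the receptors described as cytokine receptor-like factor 2 and leukocyte immunoglobulin-like receptor A6 belong to families of leukocytes. IGSF23 is an immunoglobulin superfamily member about which little is known. The absence of a role in the liver could not be examined with these data, and the receptors of the leukocyte families belong to cells that reside in liver tissue.

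The libraries carried the hepatocyte markers of liver tissue, with albumin between 33168 and 71003 FPKM. In whole tissue, more cells of a type and more RNA per cell cannot be told apart. The most frequent non-zero value of genes of 400 to 600 bases, which approaches the worth of a single fragment, lay between 0.10 and 0.12 FPKM in all 8 libraries. Pool 1 of the initial state held muscle and stomach transcripts, with muscle markers summing to 2880 FPKM against 24.2 or less in the other pools, and in none of the 8 genes was it the highest initial-state pool. Over all tested genes the median difference, steatosis minus initial state, was 0.25 on the log2(FPKM + 0.1) scale, and every log2 difference given below is on that scale unless a scaling is named.

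TREH, on chromosome 9 (45949891 to 45965372, Sscrofa11.1), was listed at 0 FPKM in 3 initial-state pools and at 0.03 FPKM in pool 2. That single value equals the most frequent non-zero level among genes of its length, 1927 bases, and may be as little as 1 fragment. In steatosis pools 1 to 4 TREH reached 4.87, 9.38, 10.81 and 8.07 FPKM, a mean of 8.28 ± 2.54 FPKM (SD, n = 4). No initial-state pool came near these values. The log2 difference was 6.24 (SE 0.25), and the lowest steatosis pool stood 5.26 above the highest initial-state pool on that scale, the widest such gap of the 13175 tested genes. With a pseudocount of 1 the log2 difference was 3.16, since the pseudocount sets the size of a difference that starts from 0.

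LPO, on chromosome 12 (34525113 to 34554031), had 0.06, 0.02, 0.12 and 0.16 FPKM in the initial-state pools. In the steatosis pools it had 5.18, 3.10, 0.91 and 4.49 FPKM, a mean of 3.42 ± 1.88 FPKM (SD, n = 4). The groups did not overlap, but pool 3 lay far below the other steatosis pools and the highest pool was 5.69 times the lowest. The log2 difference of 4.03 (SE 0.49) became 4.55 without steatosis pool 3.

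ATP2B3, on chromosome X (124318874 to 124357653), had 0.03, 0.04, 0.04 and 0.02 FPKM in the initial-state pools, within a few times the 0.01 to 0.02 FPKM that genes of its length most often show. In the steatosis pools it had 1.61, 0.77, 0.39 and 1.1 FPKM, a mean of 0.968 ± 0.517 FPKM (SD, n = 4) and the lowest level of the 8 genes. Its pools kept the order of LPO, with pools 1 and 4 high and pool 3 low. The log2 difference was 2.87 (SE 0.36), or 0.89 with a pseudocount of 1.

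PAQR7, on chromosome 6 (83318408 to 83329567), had 0.72, 1.09, 1.03 and 0.94 FPKM in the initial-state pools and was one of 3 genes of the group above 0.3 FPKM in every pool. In the steatosis pools it had 18.88, 10.16, 14.29 and 15.67 FPKM, a mean of 14.75 ± 3.61 FPKM (SD, n = 4), the highest of the 8 genes. The ratio of the group means was 15.6. The log2 difference was 3.81 (SE 0.20). The study also measured PAQR7 by RT-qPCR in the individual pigs of this experiment, and its log2 ratio there was positive but much smaller. For its separate regression experiment, in other pigs, the study lists a larger positive log2 ratio of steatosis over non-steatosis.

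IGSF23, on chromosome 6 (51133074 to 51150820), was listed at 0 in initial-state pools 1 and 4 and at 0.18 and 0.11 FPKM in pools 2 and 3. In the steatosis pools it had 3.67, 3.16, 4.89 and 3.57 FPKM, a mean of 3.82 ± 0.745 FPKM (SD, n = 4). The steatosis pools lay close together and far above the initial state. The log2 difference was 4.64 (SE 0.35). LOC106509492, described as similar to CEACAM5, overlaps IGSF23 on the chromosome and was at 0.03 FPKM or less in every pool.

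AMBN, on chromosome 8 (67381137 to 67394394), was the most even of the genes before the diet, with 0.86, 0.93, 0.93 and 1.02 FPKM. In the steatosis pools it had 12.18, 13.84, 10.76 and 8.89 FPKM, a mean of 11.4 ± 2.10 FPKM (SD, n = 4). The ratio of the group means was 12.2 and the log2 difference 3.46 (SE 0.15). Of the 2 transcripts counted for AMBN, 1 was a new transcript assembled from these reads, and the gene-level values do not separate them.

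LOC110257900, on chromosome Y (4965886 to 4992529), is described as cytokine receptor-like factor 2, the receptor chain that binds thymic stromal lymphopoietin. Before the diet its pools had 0.06, 0.07, 0.05 and 0.03 FPKM. After it they had 1.40, 2.02, 2.91 and 1.44 FPKM, a mean of 1.94 ± 0.704 FPKM (SD, n = 4). Its steatosis pools followed the order of TREH, with pool 3 highest and pool 1 lowest. The log2 difference was 3.69 (SE 0.26). A further row named CRLF2, at no placed position, stayed at 0.14 FPKM or less in every pool, and reads of near-identical copies may be split between such rows.

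LOC100624191, on chromosome 6 (58978863 to 58985865), is described as leukocyte immunoglobulin-like receptor A6. Before the diet its pools had 1.09, 1.41, 1.53 and 1.07 FPKM. After it they had 12.79, 14.05, 12.76 and 10.09 FPKM. The steatosis mean of 12.4 ± 1.67 FPKM (SD, n = 4) had a coefficient of variation of 13.4%, the smallest of the 8 genes. The ratio of the group means was 9.74 and the log2 difference 3.19 (SE 0.15). Its 5 counted transcripts included 3 new ones, and the family has near-identical copies, so its level is uncertain to the extent that reads were shared.

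**Figure D1:**
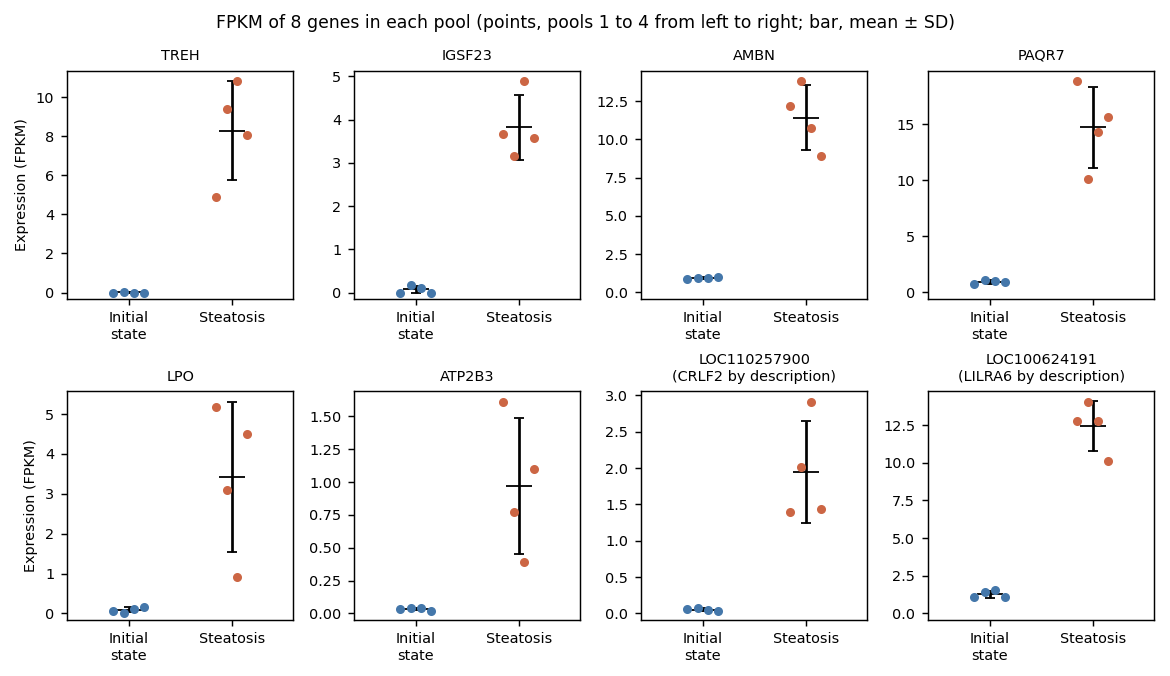
FPKM of the 8 genes (vertical axes, linear and different for each gene) in the 4 initial-state pools and the 4 steatosis pools; points are pools 1 to 4 from left to right and bars are mean ± SD. The groups do not overlap in any gene, and LPO and ATP2B3 have the widest relative spread among steatosis pools.

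Groups that did not overlap, with steatosis higher, were found in 29.6% of all tested genes, and the rule fixed this for the 8 genes. By the gap between the lowest steatosis pool and the highest initial-state pool, the genes ranked 1 (TREH), 4 (IGSF23), 8 (LOC110257900), 9 (PAQR7), 10 (AMBN), 17 (LOC100624191), 37 (LPO) and 50 (ATP2B3) of 13175. At the lower edge the gap of ATP2B3 was 1.81 and that of the next gene outside it, the heat shock gene HSPA6, was 1.79. The choice was therefore not a complete list of such genes, since 50 genes had a gap as wide as that of ATP2B3 or wider. After each library was scaled by its median ratio, the log2 differences of the 8 genes ranged from 2.74 to 6.13.

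In steatosis the levels ran from PAQR7 through LOC100624191, AMBN, TREH, IGSF23, LPO and LOC110257900 down to ATP2B3. The pool ranges of every pair of neighbours in this order overlapped, so the order between neighbours was not resolved beyond the spread. PAQR7 lay above 74.7% of the tested genes by its steatosis mean and ATP2B3 above 12%, so the group spans rare to moderately abundant liver transcripts.

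The 8 genes did not move together from pool to pool. Within steatosis, pool 1 was the highest for LPO, ATP2B3 and PAQR7, pool 2 for AMBN and LOC100624191, and pool 3 for TREH, IGSF23 and LOC110257900. Steatosis pool 3 held 0.27 times the steatosis mean of LPO and 0.40 times that of ATP2B3, but 1.31 times that of TREH and 1.5 times that of LOC110257900.

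**Figure D2:**
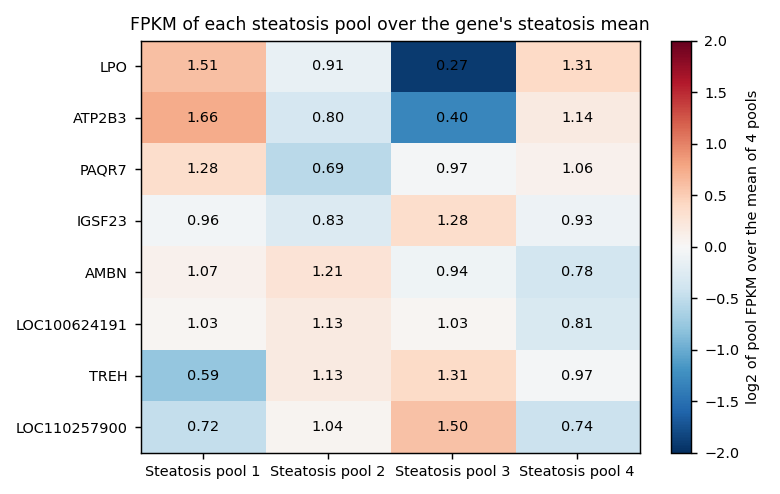
FPKM of each steatosis pool divided by the gene's own mean over the 4 steatosis pools (numbers; colours show the log2 of the same ratio). LPO and ATP2B3 run from 1.51 and 1.66 in pool 1 to 0.27 and 0.40 in pool 3, and TREH and LOC110257900 run the other way.

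Pearson correlations of the deviations from the group means over the 8 pools, given as a description, ranged over the 28 pairs of genes from -0.97 to 0.83 with a median of 0.02. LPO and ATP2B3 were the most alike (r = 0.83), followed by TREH and LOC110257900 (r = 0.78). Between these pairs the correlations were negative, with -0.97 for LPO and LOC110257900, -0.87 for ATP2B3 and LOC110257900, -0.82 for TREH and ATP2B3 and -0.77 for TREH and LPO. The points share libraries, and 4 pools per group leave few degrees of freedom.

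Some markers of other liver cells were also uneven between steatosis pools. The summed markers of stellate cells and fibroblasts were 236, 124, 133 and 326 FPKM in steatosis pools 1 to 4, highest in the pools in which LPO and ATP2B3 were high. The members of this list differed, since LRAT, the retinol esterifying enzyme of stellate cells, had 4.21, 4.45, 4.33 and 3.69 FPKM. Over all 8 pools the median correlation with the genes of this list was -0.04 for LPO and 0.37 for ATP2B3, and with the cholangiocyte markers it was 0.30 for LPO and 0.62 for ATP2B3. The part of these cells in the spread of LPO and ATP2B3 was not tested.

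**Figure D3:**
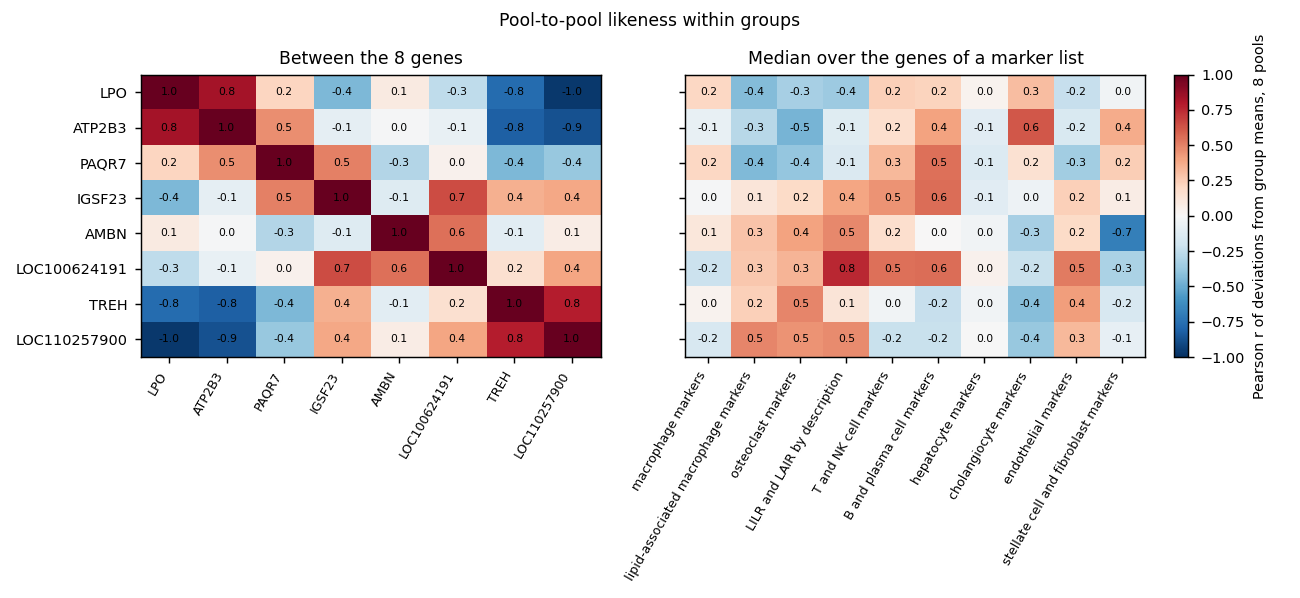
Pearson r of deviations from group means of log2(FPKM + 0.1) over 8 pools, between the 8 genes (left) and as the median over the tested genes of a marker list (right). LPO with ATP2B3 and TREH with LOC110257900 are positive at 0.8 and the correlations between those pairs are negative.

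The genes whose deviations were most like each of the 8 were AAED1 and CMSS1 for TREH, RAB40C and POLD2 for IGSF23, ELOVL6 and IL18RAP for AMBN, CCDC92 and SMIM11A for PAQR7, EAF2 and MAB21L2 for LPO, MT1D and ATP6V1G2 for ATP2B3, BACH2 and COQ7 for LOC110257900, and IL15RA and RYK for LOC100624191. Their correlations lay between 0.94 and 0.99 over 8 pools. With 13174 genes compared, between 9 (AMBN) and 106 (IGSF23) genes exceeded 0.9. Only 1 of these 16 genes was named again with a pseudocount of 1, so the list is unstable.

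The families of the 8 genes held 85 other measured genes, of which 52 passed the filter. By limma, with an adjusted p under 0.01 and a log2 difference beyond 1, 8 of the 52 were higher in steatosis, or 15.4%, against 6.01% of all tested genes, and 2 were lower, against 0.334%. The median log2 difference of the 52 was 0.38, against 0.25 for all genes. The count of 8 became 3 after median-ratio scaling when the count over all tested genes went from 792 to 411.

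No other disaccharide-splitting enzyme followed trehalase. Of the other 5 measured, 4 were tested and none was called. Maltase-glucoamylase (MGAM), the most abundant, had 33.90, 32.88, 37.28 and 41.78 FPKM in the initial state and 44.57, 52.17, 46.58 and 61.81 FPKM in steatosis (log2 difference 0.49, SE 0.12, adjusted p = 0.0172). The lysosomal acid glucosidase GAA went from 22.5 to 30.8 FPKM (adjusted p = 0.0512), MGAM2 from 1.43 to 1.91 FPKM (adjusted p = 0.154) and lactase (LCT) from 0.330 to 0.290 FPKM (adjusted p = 0.915). Sucrase-isomaltase (SI) was at 0.05 FPKM or less in every pool. By mean FPKM, TREH was the last of these 6 enzymes in the initial state and the third in steatosis, where it made up 8.90 ± 2.53% (SD, n = 4) of their summed FPKM.

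Brush border genes, the setting in which trehalase is best known, went in both directions. Of 15 measured, 7 were tested, 3 were higher and 1 was lower in steatosis. Villin (VIL1), which bundles actin in microvilli, had 1.37, 0.92, 1.27 and 1.02 FPKM in the initial state and 8.94, 6.32, 7.50 and 10.81 FPKM in steatosis (log2 difference 2.76, SE 0.19, adjusted p = 2.1e-05). The protocadherin CDHR5 of microvilli rose from 11.8 to 35.1 FPKM (log2 difference 1.59, adjusted p = 0.0031) and aminopeptidase N (ANPEP) from 33.4 to 98.9 FPKM (log2 difference 1.56, adjusted p = 0.0017). APOA4, an apolipoprotein of gut and pig liver, fell by 1.82 (adjusted p = 0.0029). CDHR5 and ANPEP lost their calls after median-ratio scaling, and APOA4 without pool 2 or pool 4 of the initial state. The transporters and peptidases SLC5A2, LRP2, CUBN, MEP1A and MEP1B, which mark kidney or gut epithelium, stayed at 0.10 FPKM or less in every pool. The transporter SLC5A1 of the same list passed the filter and was not called (0.538 to 0.848 FPKM, log2 difference 0.60, adjusted p = 0.0695). MYO1A and FABP2 did not pass the filter, but reached 0.31 FPKM in initial-state pool 1 and 0.29 FPKM in steatosis pool 2.

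Beside LPO, the peroxidases of the granulocytes stayed below the filter. Peroxidasin (PXDN), which crosslinks basement membrane collagen, went from 1.52 to 2.53 FPKM (log2 difference 0.75, SE 0.22, adjusted p = 0.0284). Myeloperoxidase (MPO), the granule enzyme of neutrophils and the next gene to LPO on the chromosome, had 0.02, 0.02, 0.02 and 0 FPKM in the initial state and 0.18, 0.20, 0.26 and 0.11 FPKM in steatosis, below the filter and not tested. Its steatosis pools did not follow LPO, with pool 3 the highest. Eosinophil peroxidase (EPX) stayed at 0.07 FPKM or less in every pool. DUOX2, an oxidase that supplies peroxide to LPO in airways, was at 0.417 FPKM before and 0.163 FPKM after (adjusted p = 0.0603).

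ATP2B3 remained the least abundant of the 4 plasma membrane calcium pumps. ATP2B2 had 9.70, 11.74, 11.68 and 8.17 FPKM in the initial state and 8.83, 11.50, 9.55 and 8.73 FPKM in steatosis (log2 difference -0.09, adjusted p = 0.669), ATP2B1 went from 6.21 to 8.70 FPKM (0.47, adjusted p = 0.0345) and ATP2B4 from 1.09 to 1.88 FPKM (0.74, adjusted p = 0.0135). None of these 3 was called. In steatosis pool 1 ATP2B3 and ATP2B4 were equal at 1.61 FPKM, and in the other pools ATP2B3 was lower. Its share of the summed FPKM of the 4 pumps was 0.181 ± 0.0304% in the initial state and 4.74 ± 2.88% (SD, n = 4) in steatosis. Of the 10 calcium pumps, exchangers and pump partners tested beside ATP2B3, these 3 included, 1 was called, the mitochondrial sodium-lithium-calcium exchanger SLC8B1 (3.94 to 8.45 FPKM, log2 difference 1.09, adjusted p = 0.000515), which fell under the limit after median-ratio scaling. ATP2A3, the calcium pump of the endoplasmic reticulum in blood cells, missed the size limit (log2 difference 0.96, adjusted p = 0.0028).

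PAQR7 had 1 called relative. PAQR8, a further membrane progestin receptor, had 0.65, 0.38, 0.44 and 0.37 FPKM in the initial state and 1.29, 1.63, 1.38 and 1.37 FPKM in steatosis (log2 difference 1.46, SE 0.19, adjusted p = 0.000716). With a pseudocount of 1 its log2 difference was 0.73, under the size limit. PAQR5 (log2 difference 1.08, adjusted p = 0.0193) and PAQR9 (1.06, adjusted p = 0.0324) were not called, although PAQR9 passed when pool numbers entered the fit as a block (adjusted p = 0.0049). The adiponectin receptors ADIPOR1 (-0.15, adjusted p = 0.296) and ADIPOR2 (-0.53, adjusted p = 0.0603), the Golgi member PAQR3 (-0.59, adjusted p = 0.022) and the progesterone-binding membrane proteins PGRMC1 (-0.38, adjusted p = 0.0364) and PGRMC2 (-0.09, adjusted p = 0.604) were lower on average and not called. Among PAQR3 to PAQR9, PAQR7 supplied 5.35 ± 0.960% of the summed FPKM in the initial state and 37.8 ± 9.42% (SD, n = 4) in steatosis. Its steatosis pools overlapped with those of PAQR9, which had 13.27, 20.11, 19.01 and 13.54 FPKM.

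The partners of ameloblastin in enamel were not detected to any extent. Amelogenin (AMELX), enamelin (ENAM) and the enamel proteases MMP20 and KLK4 were at 0.10 FPKM or less in every pool, ENAM and AMBN lying next to each other on chromosome 8. Of 4 other enamel and bone matrix genes tested, only osteopontin (SPP1) was called, with 4.68, 9.64, 4.16 and 6.01 FPKM in the initial state and 74.38, 226.52, 201.44 and 103.63 FPKM in steatosis (log2 difference 4.54, SE 0.37, adjusted p = 5.6e-05). DMP1, which acts in bone and dentin mineral, went from 3.04 to 4.50 FPKM (adjusted p = 0.0391), the collagen-binding protein SPARC from 52.5 to 79.2 FPKM (adjusted p = 0.231) and SPARCL1 from 10.2 to 7.98 FPKM (adjusted p = 0.35). Steatosis pool 2 was the highest of its group for both AMBN and SPP1, but the lowest pool was pool 4 for AMBN and pool 1 for SPP1.

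Of 13 other immunoglobulin superfamily members measured beside IGSF23, 8 were tested and 1 was called, IGSF6, a receptor of myeloid cells that went from 2.46 to 5.36 FPKM (log2 difference 1.09, SE 0.14, adjusted p = 0.000489) and fell under the size limit after median-ratio scaling. IGSF11 (4.87 to 7.41 FPKM, adjusted p = 0.0173), the adhesion receptors CEACAM1 (28.0 to 24.2 FPKM, adjusted p = 0.296) and NECTIN2 (18.8 to 19.9 FPKM, adjusted p = 0.576), and IGSF5 of tight junctions (21.7 to 22.6 FPKM, adjusted p = 0.752) were not called.

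**Figure D4:**
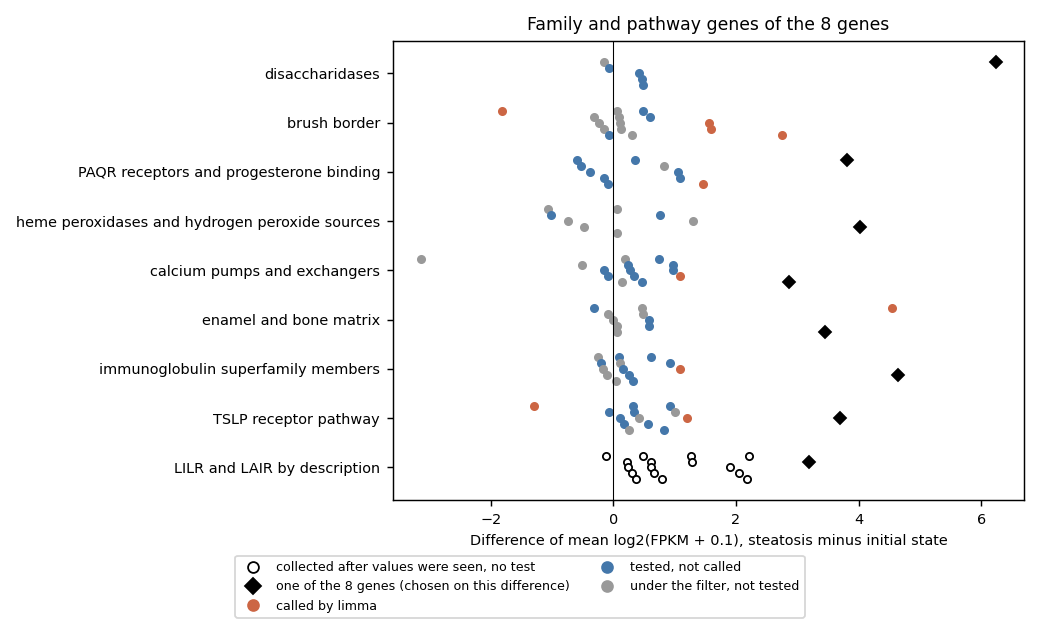
Difference of the mean log2(FPKM + 0.1), steatosis minus initial state (horizontal axis), of the 8 genes (black diamonds, chosen on this difference) and of their family and pathway genes (circles; orange, called by limma; blue, tested and not called; grey, below the filter; open, leukocyte receptor rows collected after their values were seen and shown without calls). Apart from osteopontin at 4.54, the called family genes lie below the 8 genes.

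The pathway around LOC110257900 had both a gene called higher and one called lower. The ligand TSLP was at 0.53 FPKM or less in every pool and was not tested. The partner receptor IL7R went from 0.772 to 1.35 FPKM (log2 difference 0.83, SE 0.30, adjusted p = 0.0646). The common gamma chain IL2RG, which serves several interleukin receptors, had 5.50, 6.46, 9.13 and 6.74 FPKM in the initial state and 15.51, 16.72, 13.47 and 18.06 FPKM in steatosis (log2 difference 1.2, SE 0.16, adjusted p = 0.00068), and fell under the size limit after median-ratio scaling. Of the signalling genes, JAK3 (log2 difference 0.92, adjusted p = 0.00425) and STAT5A (0.56, adjusted p = 0.0093) passed the p limit without the size limit, and JAK1 (0.10, adjusted p = 0.524) and JAK2 (0.18, adjusted p = 0.357) passed neither. CISH, a feedback inhibitor that STAT5 induces, fell by 1.30 (13.0 to 4.96 FPKM, adjusted p = 0.0050), a call that was lost when any of 5 pools was left out.

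Of the 8 rows described as leukocyte immunoglobulin-like receptor A6, LOC100624191 was the most abundant in both groups. It supplied 54.1 ± 2.2% of their summed FPKM in the initial state and 80.6 ± 2.47% (SD, n = 4) in steatosis. The other rows of this family, and those described as leukocyte-associated receptors, were collected after their values were seen. They are given without tests, except for the 3 that lie beside LOC100624191 and are tested below as its chromosome neighbours. LOC100522225, with the same description, had 0.37, 0.37, 0.50 and 0.40 FPKM in the initial state and 1.72, 2.51, 1.69 and 1.45 FPKM in steatosis. LOC100511639 had 7.93, 8.85, 7.41 and 0.96 FPKM in the initial state and 22.45, 20.65, 16.33 and 2.40 FPKM in steatosis. Pool 4 was the lowest of both groups in LOC100511639, while LOC100624191 showed only a slight dip in pool 4.

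The 3 nearest measured genes on each side of the 8 genes gave 47 neighbours, of which 29 were tested. By limma 3 of them were higher in steatosis, or 10.3% against the background of 6.01%, and 1 was lower, against 0.334%. Their median log2 difference was 0.37, and 4 of the 8 genes had no called neighbour.

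LOC100515837, described as leukocyte-associated immunoglobulin-like receptor 1, an inhibitory collagen receptor of leukocytes, lies 29669 bases from LOC100624191. It had 2.19, 2.83, 1.75 and 2.12 FPKM in the initial state and 13.21, 10.48, 9.65 and 9.32 FPKM in steatosis (log2 difference 2.22, SE 0.17, adjusted p = 3.4e-05). On the other side LOC100517285, itself described as leukocyte immunoglobulin-like receptor A6, went from 0.403 to 0.540 FPKM (log2 difference 0.37, adjusted p = 0.256). PIGE-108A11.3, the next gene of the cluster, went from 0.237 to 0.465 FPKM (adjusted p = 0.111). The called gene and the genes not called thus lay side by side in the cluster.

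Stathmin (STMN1), a regulator of microtubules in dividing cells, lies 26836 bases from PAQR7 and rose from 7.72 to 20.8 FPKM (log2 difference 1.40, SE 0.15, adjusted p = 0.00021). AUNIP, 1765 bases from PAQR7 on the other side, was at 0.12 and 0.183 FPKM. Biglycan (BGN), a matrix proteoglycan 23423 bases from ATP2B3, went from 46.7 to 105 FPKM (log2 difference 1.14, SE 0.20, adjusted p = 0.0027), a call lost after median-ratio scaling. Its steatosis pools had 113.73, 83.01, 80.91 and 141.40 FPKM, high in pools 1 and 4 as ATP2B3 was. FAM58A, 3349 bases beyond ATP2B3, was not called (log2 difference 0.15, adjusted p = 0.425).

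The gene called lower, LOC100624541, a liver sulfotransferase of the SULT1B1 type, lies 632375 bases from AMBN and went from 14.6 to 5.19 FPKM (log2 difference -1.53, SE 0.25, adjusted p = 0.0019). The casein gene CSN1S1, the nearest measured gene on that side, was at 0.05 FPKM or less. PHLDB1 ends 475 bases from TREH and was not called (3.85 to 5.99 FPKM, log2 difference 0.69, adjusted p = 0.041), and a trehalase-like gene, LOC102160985, 16876 bases beyond TREH, stayed at 0.09 FPKM or less. Beside IGSF23, the poliovirus receptor homolog LOC100525346 was not called (0.718 to 1.30 FPKM, log2 difference 0.80, adjusted p = 0.0169). MKS1 beside LPO was not called either (1.59 to 1.94 FPKM, adjusted p = 0.257).

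LOC110257903, described as the alpha chain of the granulocyte-macrophage colony-stimulating factor receptor, lies 27460 bases from LOC110257900. It had 0.58, 0.20, 0.71 and 0.93 FPKM in the initial state and 1.2, 2.25, 2.43 and 1.81 FPKM in steatosis (log2 difference 1.61, SE 0.37, adjusted p = 0.0107) and just missed the p limit. Its groups did not overlap, and in both genes pool 3 was the highest and pool 1 the lowest of steatosis. LOC100624648, on the other side, was not called (log2 difference 0.35, adjusted p = 0.715).

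**Figure D5:**
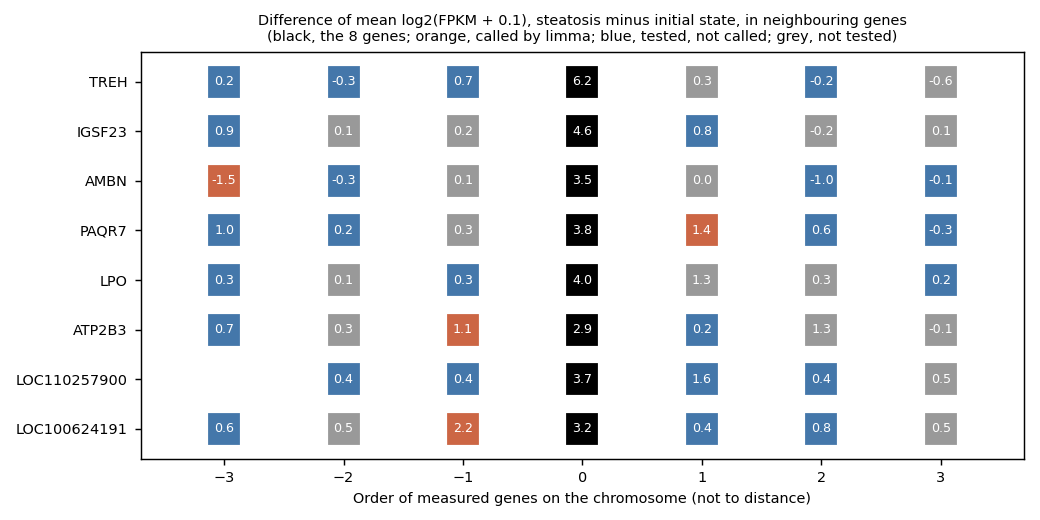
Difference of the mean log2(FPKM + 0.1), steatosis minus initial state (numbers), in up to 3 measured genes on each side of the 8 genes, in chromosome order and not to distance; black, the 8 genes; orange, called by limma; blue, tested and not called; grey, below the filter. Every one of the 8 genes exceeds its neighbours, which carries no weight because the 8 genes were chosen on this difference. The nearest in size is LOC100515837 at 2.22 beside LOC100624191 at 3.19.

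Part of the macrophage markers were called higher in the same comparison, in which 6.01% of all tested genes were. Of 10 markers of lipid-associated macrophages, all tested, 6 were higher and PLIN2, LPL, CTSB and LIPA were not called. The summed level of the 10 went from 728 to 778 FPKM in the initial state to 1669 to 2917 FPKM in steatosis. CTSB (log2 difference 0.85, adjusted p = 0.00053) and LIPA (0.79, adjusted p = 0.0098) passed the p limit without the size limit. PLIN2 was lower on average (-0.68, adjusted p = 0.0172). LPL (4.00, adjusted p = 0.016) had 6.59 FPKM in initial-state pool 1 and 0.27 FPKM or less in the other initial-state pools. Of 9 tested osteoclast markers 7 were higher, and the measured markers of the list had sums of 20.9 to 23.3 FPKM and 173 to 285 FPKM. ACP5 made up most of these sums, with means of 12.05 and 189 FPKM. NFATC1 (log2 difference 0.22, adjusted p = 0.433) and TNFRSF11A (0.44, adjusted p = 0.101) were not called. The calls of CTSK and OSCAR were each lost under 8 of the alternatives, and that of DCSTAMP with a pseudocount of 1. Of 14 general macrophage markers 3 (MARCO, CD68 and TYROBP) were higher, and the 14 had sums of 1143 to 1485 FPKM and 1626 to 1840 FPKM. AIF1 (log2 difference 0.90, adjusted p = 0.0010), VSIG4 (0.94, adjusted p = 0.0021), ADGRE1 (0.83, adjusted p = 0.0072), C1QB (0.64, adjusted p = 0.0027) and CSF1R (0.62, adjusted p = 0.0018) passed the p limit without the size limit. CD163, C1QA, C1QC and TIMD4, at 0.07 to 0.44, and CD5L and CD14, at -0.34 and -0.19, passed neither limit. TREM2, a lipid receptor of macrophages, had 0.12, 0.29, 0 and 0 FPKM in the initial state and 5.28, 5.71, 6.54 and 4.01 FPKM in steatosis (log2 difference 4.98, adjusted p = 6.2e-05). The part of these cells in the levels of the 8 genes was not tested.

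Markers of other cell types were examined in the same way. None of 10 hepatocyte markers and none of 8 endothelial markers was called. The endothelial marker PECAM1 passed the p limit without the size limit (13.0 to 21.8 FPKM, log2 difference 0.74, adjusted p = 0.00075). All 8 endothelial differences were positive, with a median of 0.38 against 0.25 for all tested genes. Of the T and NK cell markers 2 of 11 (CD4 and NKG7) were higher, and 1 of 6 tested B cell markers (MS4A1) was lower. CD4 fell under the size limit after median-ratio scaling, and the MS4A1 call was lost under 9 of the alternatives. Of 10 stellate cell and fibroblast markers, all tested, 1 was called, LRAT, which was higher (log2 difference 1.25, adjusted p = 0.00077). LRAT fell under the size limit with a pseudocount of 1 and after median-ratio scaling. The median log2 difference of these 10 markers was 0.77. Of 2 tested markers of neutrophils and eosinophils, CSF3R, the receptor for granulocyte colony-stimulating factor, was higher (1.44 to 4.07 FPKM, log2 difference 1.49, adjusted p = 0.0023). The other, the chemokine receptor CXCR2, was not called (1.68 to 1.88 FPKM, log2 difference 0.18, adjusted p = 0.534). Of the cholangiocyte markers, SPP1 was higher, while KRT19, the keratin that defines these cells, was not called (3.98 to 4.31 FPKM, adjusted p = 0.827). Neuron markers, which bear on ATP2B3, summed to 0.08 to 0.85 FPKM in the initial state and 0.12 to 0.19 FPKM in steatosis, and all 6 measured were below the filter. The only measured marker of salivary and mammary glands, which bear on LPO, was CSN1S1, at 0.05 FPKM or less.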

How the data were processed

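RNA of liver pools was selected for poly-A and sequenced as paired reads of 100 bases on a DNBseq instrument. Per the labels and the study's methods, the authors filtered the reads, mapped them with HISAT2 2.0.4 to the Sus scrofa genome (Sscrofa11.1), assembled new transcripts, mapped the reads to known plus new coding transcripts with Bowtie2 2.2.5 and estimated expression with RSEM 1.2.12. The deposited FPKM values, 1 column per pool, were used as they stood, with no scaling between libraries. Gene length was the other column used from the deposited files. These also hold comparisons of single pool pairs by the authors (fold changes, p-values and similar), which were not used. Library totals were not among the values used, so the counting error of a low FPKM is unknown.

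A gene was tested if it had at least 0.3 FPKM in at least 4 of 8 pools. Differences of log2(FPKM + 0.1) were fitted with limma 3.58.1 (R 4.3.3), with a mean-variance trend and Benjamini-Hochberg adjustment over all 13175 tested genes, and called at an adjusted p under 0.01 and a log2 difference beyond 1. The script was tested on simulated data. A difference on this scale understates the change of low genes. P-values measure the spread between pools of 2 pigs. The 8 genes, their family, neighbour and marker lists were chosen with earlier results of these data known. Named were the 8 genes, called and most abundant genes of each family, called and nearest neighbours, and the 2 genes most like each in pool-to-pool deviation. Coordinates are those of RefSeq for Sscrofa11.1, matched by gene ID for 17778 of 18103 rows. The other 325 are new transcripts.

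The pool numbers are shared between groups and the study sampled the same pigs before and after the diet. Deviations from the group mean correlated at 0.16, 0.35, 0.32 and 0.25 between same-numbered pools 1 to 4, each the highest for its number, so the numbers were taken to pair the pools, and a fit with the number as a block was run as an alternative. Other alternatives were a pseudocount of 1, no filter, a filter of 1 FPKM, 3 scalings and leaving out each pool. PGR, AMTN and other list genes without a row were not analysed here. Some further genes of the lists are not reported here.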

Additional observations from a re-analysis of the deposited data

Results flagged for a closer look

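TREH in pool 2 of the initial state stood apart from its group, at 0.03 FPKM where the other 3 pools were listed at 0. Of 16 groups of 4 pools examined, this was the only one with such a sample, and chance gives about 1 in 20 such groups. With 3 pools at 0, any non-zero value in the remaining pool is flagged, so the flag follows from the zeros. The value equals the most frequent non-zero level of genes of that length.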

How the results depend on the processing

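The log2 differences of the 8 genes were recomputed 96 times under other settings. All kept their direction, 85 moved by less than the spread between pools and 11 by more, 8 of these with a pseudocount of 1, where ATP2B3 was lowest at 0.89. Genes higher in steatosis numbered 792, and 395 with a pseudocount of 1, 411 with median-ratio and 453 with upper-quartile scaling. Leaving out 1 pool gave 625 to 778. Genes lower numbered 44, and 83 with median-ratio and 67 with upper-quartile scaling. Leaving out 1 pool gave 26 (without steatosis pool 4) to 50, and 28 without steatosis pool 2. Of family genes 8 were higher, and 5 with a pseudocount of 1, 3 with median-ratio and 4 with upper-quartile scaling, or 7 to 11 with 1 pool left out. The 2 lower ones became 0 to 2 with 1 pool left out, 0 without initial-state pool 2. Of neighbours 3 were higher, and 5 with no filter or common-sum scaling and 2 to 5 with 1 pool left out, 5 without initial-state pool 2. The 1 lower neighbour became 2 with median-ratio scaling and 1 to 2 with 1 pool left out, 2 without initial-state pool 1. The cause was not tested, but median-ratio scaling by construction takes away the shift of 0.25, to -0.01. With the pool number as a block, 785 genes were higher and 57 lower, and among the tested family, neighbour and cell type marker genes only PAQR9 changed its call. At 0.1 FPKM and below a level rests on few fragments, which limits the initial-state values of 5 of the 8 genes.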
